A study of Mus musculus with 4 samples.

Results

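Mouse embryos without nucleoredoxin were compared with wild-type embryos at embryonic stage E11.5. Members were the autosomal genes of the 2 E11.5 arrays, an array and its dye swap, with a probe that cleared background for the null, the wild type or both on each of these arrays. There were 13586 such genes among 16686 fitted genes or transcripts, and the 2 arrays were 2 of the 4 in the series. The null RNA came from embryos that the labels give as NRX -/-, the wild-type RNA from NRX +/+ embryos, both C57BL/6J, without treatment. Each array was a two-colour Agilent whole mouse genome array that received both RNAs, with the null RNA in Cy5 on replicate 1 and in Cy3 on replicate 2. The other 2 arrays held the same genotypes at E9.5. The number of embryos behind each RNA, and whether the dye-swapped arrays carried separate extracts, are not given in the sources used here, so every value rests on n = 2 arrays and counts as 1 replicate of the genotype.

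Nucleoredoxin, the product of Nxn, is a thioredoxin-related protein that binds Dishevelled, an adaptor of Wnt signalling. At this age the blood of a mouse embryo carries large primitive red cells, which arise in the yolk sac and make embryonic globins, while the fetal liver starts to release definitive red cells. The transcription factors Gata1, Tal1 and Klf1 switch on globin, heme and membrane genes in both kinds of red cell, and megakaryocytes, which shed platelets, come from a precursor they share with red cells.

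The ratio used throughout is log2 of Nxn-null over wild type, in processed signals, averaged over both arrays with its SD. A ratio below 0 means less RNA in the null. A limma model of all 4 arrays with a dye term called genes at a Benjamini-Hochberg adjusted p under 0.05. The model measures array spread on 1 residual degree of freedom and compares the RNAs hybridised, not genotypes. With 30.2 prior degrees of freedom, most of a gene's variance was borrowed from genes of like intensity. A gene whose 2 arrays differ widely can therefore still be called. The model called 1402 autosomal genes (10.3%), 661 higher (4.87%) and 741 lower (5.45%) in the null, and 2869 had an unadjusted p under 0.05. Counts of called members in the lists below are to be read against these shares. Without the intensity trend in the variance the model called 87 higher (0.640%) and 96 lower (0.707%). With no dye term it called 16 higher and 38 lower (together 0.397%). A fit with 1 of the E11.5 arrays left out kept 1 array of that stage and no dye term, so its calls are not given. Between the arrays, ratios of all genes correlated weakly (Pearson 0.135, Spearman -0.06, across genes, which are not independent replicates), and 6100 genes (44.9%) had the same sign on both. The median ratio over all genes was 0.02 and the median SD between arrays 0.15. Of 41174 probes, 63.8% were above background in the null and 48.2% in the wild type on replicate 1, and 60.1% and 70.3% on replicate 2, so the Cy5 channel had more on each array. Among members, 11746 genes were above background in both genotypes on both arrays, 1817 in the null alone and 23 in the wild type alone. In bulk RNA, fewer cells of a type and less RNA per cell cannot be told apart.

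**Figure D1:**
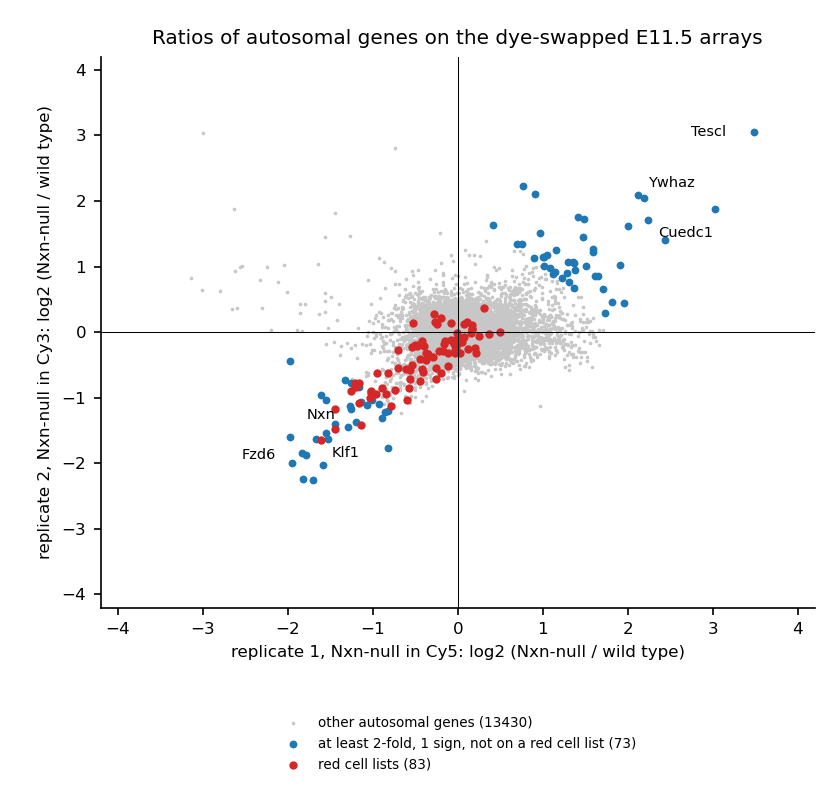
Log2 ratio of Nxn-null over wild type for 13586 autosomal genes on the array with the null RNA in Cy5 (horizontal) and its dye swap (vertical). Red points are the 83 measured red cell genes, most of them in the lower left, blue points the other 73 genes at least 2-fold apart with 1 sign, and grey points all other genes, which gather around 0.

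The RNAs also differed in sex-linked genes. Xist, which silences 1 X chromosome in females, had 4 probes above background in the null RNA on both arrays, and in the wild-type RNA 1 of them was above background, on 1 array. Its brightest probe had ratios of 8.70 and 8.93. The Y-linked genes Eif2s3y (-7.62), Ddx3y (-6.94) and Kdm5d (-4.99) were above background on both arrays in the wild-type RNA and on neither in the null. Sex and genotype of the E11.5 RNAs therefore cannot be told apart, and sex-linked genes were left out of all counts.

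Nxn itself was lower in the null on both arrays. Its brightest probe read 3078 in the null against 7525 in the wild type on replicate 1, and 3843 against 10469 on replicate 2. The ratios of -1.29 and -1.45 gave a mean of -1.37 ± 0.11 (SD, n = 2 arrays), or 38.7% of the wild-type level (limma adjusted p = 4.69e-17). A second probe gave -1.26 ± 0.04. The labels leave unsaid whether these probes lie inside the deleted sequence, so the signal left in the null checks the labels only in part. At E9.5 the ratio was -0.97, closer to 0 than at E11.5 (difference -0.40, limma adjusted p = 0.00201).

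Genes for proteins reported to bind nucleoredoxin mostly stayed near 0. Of the 13 measured members of that list, Nxn and Camk2a, a calcium-dependent kinase of neurons (-0.53 ± 0.48), were lower and Pfkl, the liver form of phosphofructokinase (0.23 ± 0.15), was higher by limma. The Dishevelled genes Dvl1, Dvl2 and Dvl3 had ratios of -0.02, 0.10 and 0.04. Flii (-0.02), Myd88 (0.15) and Pfkp (-0.01), all reported partners, did not pass the test. Camk2a gave -0.87 on replicate 1 and -0.19 on replicate 2, so its size is uncertain.

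Most red cell genes were lower in the null. Over 4 lists (globins, erythroid regulators, heme and iron, membrane and enzymes) 83 autosomal genes were measured, 49 were lower by limma against 5.45% of all genes, and 1 was higher. The median ratio of the 83 was -0.33 against 0.02 for all genes, and 58 were lower on both arrays. These lists were chosen with earlier results of these data known, so the counts describe them and are not independent evidence. Without the intensity trend 18 of the 83 were lower (against 0.707% of all genes), and without a dye term 11 (against 0.397% called in either direction).

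The promoters of 4 of the red cell genes that were lower are printed here as examples of windows with a GATA motif, the sequence that Gata1 binds. They come from RefSeq on build GRCm38.p6, run from 250 bases before to 50 bases after the annotated start, 5′ to 3′ along the gene's strand, and have the motif in capitals. The motif is GATA with an A or T before it and an A or G after it (AGATAA, for example, and likewise AGATAG, then TGATAA, and lastly TGATAG), searched on both strands, and matches were allowed to overlap.
Klf1, chr8:84901732-84902031, plus strand: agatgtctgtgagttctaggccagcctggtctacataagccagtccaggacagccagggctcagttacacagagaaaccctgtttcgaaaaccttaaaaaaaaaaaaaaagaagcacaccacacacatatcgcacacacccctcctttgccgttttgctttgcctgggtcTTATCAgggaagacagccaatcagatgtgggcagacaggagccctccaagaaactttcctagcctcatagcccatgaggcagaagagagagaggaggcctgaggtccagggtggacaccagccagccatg
Hbb-y, chr7:103853158-103853457, minus strand: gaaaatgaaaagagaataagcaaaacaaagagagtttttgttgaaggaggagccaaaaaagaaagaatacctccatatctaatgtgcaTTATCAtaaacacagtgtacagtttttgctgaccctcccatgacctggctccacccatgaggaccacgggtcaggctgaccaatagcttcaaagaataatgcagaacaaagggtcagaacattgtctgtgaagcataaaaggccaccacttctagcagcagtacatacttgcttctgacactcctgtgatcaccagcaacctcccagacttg
Epor, chr9:21963527-21963826, minus strand: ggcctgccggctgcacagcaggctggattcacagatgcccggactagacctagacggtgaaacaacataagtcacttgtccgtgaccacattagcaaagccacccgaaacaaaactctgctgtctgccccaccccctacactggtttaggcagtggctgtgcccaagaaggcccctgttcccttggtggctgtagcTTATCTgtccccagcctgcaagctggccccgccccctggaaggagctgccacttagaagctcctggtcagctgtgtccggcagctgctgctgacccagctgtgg
Kel, chr6:41704276-41704575, minus strand: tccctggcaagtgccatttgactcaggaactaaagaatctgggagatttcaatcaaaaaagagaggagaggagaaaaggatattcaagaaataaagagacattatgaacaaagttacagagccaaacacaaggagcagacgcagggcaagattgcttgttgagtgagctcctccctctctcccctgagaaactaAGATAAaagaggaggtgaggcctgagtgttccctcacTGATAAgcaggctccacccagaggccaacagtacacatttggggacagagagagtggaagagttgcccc
Of the 49 red cell genes called lower, 37 had a promoter in the table, and 21 of those (56.8%) held at least 1 GATA motif, against 2445 of 10740 measured autosomal genes with a promoter (22.8%) and 33.0% of all 27025 genes in the table. In the Klf1 window it lies 80 bases before the start and in that of Epor 54 bases before it, both as the reverse complement. The sequence CCACACCC, a core bound by Klf1, was in 5.41% of the 37 promoters and in 4.40% of those of measured genes. A gene with several windows counted once, by the window with most matches. A match is a description of the letters in this window and not a binding site. Red cell genes that were not lower were not counted as a set of their own. The share of the 37 therefore cannot be tied to their lower ratios.

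The globins, which carry oxygen in the red cell, were lower without exception among the 7 measured, and the median ratio was -1.12. The 6 other listed globins had no probe of their own. Hbb-y, the main embryonic beta-like chain, read 56436 against 153365 on replicate 1 and 64538 against 179152 on replicate 2. Its ratios of -1.44 and -1.47 gave a mean of -1.46 ± 0.02, or 36.4% of wild type (limma adjusted p = 2.89e-13). Hbb-bh1, the other embryonic beta-like chain, was at -1.28 ± 0.20, and its second probe at -1.26. Of the alpha-like chains, the embryonic Hba-x was at -1.02 ± 0.26 and the adult Hba-a1 at -1.12 ± 0.06. On both arrays each of these genes was lower in the null. The dim theta-like Hbq1a (-0.71 ± 0.19) and Hbq1b (-0.59 ± 0.22) were lower too, but not without the intensity trend.

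Hbb-bt, an adult beta chain, set E11.5 apart from E9.5. It was at -1.44 and -1.18 on the E11.5 arrays, a mean of -1.31 ± 0.19, and at 0.08 at E9.5 (difference -1.39, limma adjusted p = 1.49e-11). Hba-a1, Hba-x, Hbb-bh1 and Hbq1b also had lower ratios at E11.5 than at E9.5, with differences of -0.51, -0.67, -0.39 and -0.37. For Hbb-y and Hbq1a, at -1.14 and -0.48 at E9.5, the difference did not pass the test. The chains of 1 cluster are close copies and can share signal, so the values of single chains are uncertain. The other Hbb-bt probes gave -1.26 and -0.35.

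Among erythroid regulators, Klf1, which activates globin and membrane genes, had the lowest ratio. It read 523 against 1593 and 677 against 2123, ratios of -1.61 and -1.65, and its mean of -1.63 ± 0.03 is 32.4% of wild type (limma adjusted p = 3.59e-19). At E9.5 it stood at -1.07, closer to 0 (difference -0.56, adjusted p = 2.09e-05). Trim10, a protein needed for terminal red cell maturation, followed at -0.90 ± 0.07. Epor, the erythropoietin receptor, was at -0.57 ± 0.01 and at -0.64 at E9.5.

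Of the 21 measured regulators and receptors 9 were lower and 1 higher, with a list median of -0.10. Besides those 3, the lower ones were Nfe2 (-0.51), which drives globin and platelet genes, the cell cycle factor E2f2 (-0.49), Tal1 (-0.41), Zfpm1, the Gata1 cofactor (-0.34), Lyl1 (-0.33) and Gfi1b (-0.31). Myb, which marks blood progenitors, was higher at 0.34 ± 0.04, with other probes at 0.38 and 0.07. Genes of earlier progenitors did not pass the test: Kit, the stem cell factor receptor, was at 0.10, Gata2 at -0.02, Runx1 at 0.14 and Lmo2 at 0.01. Klf1 and Trim10 alone were still lower without the intensity trend.

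Heme and iron genes were lower in 11 of 20 cases and higher in none, with a median of -0.29. Slc25a37, the mitochondrial iron importer mitoferrin, read 3674 against 8244 and 6490 against 11160, with a mean ratio of -0.97 ± 0.27, and its other probes gave -0.84 and -0.54. Abcb10, which stabilises it, was at -1.04 and -1.01 on the arrays, and its second probe at -1.49. Both had ratios closer to 0 at E9.5, -0.40 and -0.16, with differences of -0.57 and -0.86.

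Several enzymes of heme synthesis were lower, among them Fech, the last step (-0.63 ± 0.11), Cpox (-0.43), Urod (-0.35), Uros (-0.33), Alad (-0.31) and Ppox (-0.27). Alas1, the first enzyme in most other tissues, was at 0.05 and did not pass the test. Tfr2, a transferrin sensor, was at -0.39 and Blvrb, a biliverdin reductase, at -0.35. The iron exporter Slc40a1 (-0.06), the ferritin chain Ftl1 (-0.00) and the iron regulator Ireb2 (-0.06) did not pass the test. Alas2, the first enzyme of the pathway in red cells, is X-linked and outside the counts; it had -0.85 and -0.84 on the arrays, and the X-linked Gata1 had -0.09 and -0.27.

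Membrane and enzyme genes of the red cell were lower in 22 of 35 cases and higher in none, with a median of -0.38. Slc4a1, the anion exchanger band 3, read 4586 against 9283 and 6570 against 12186, ratios of -1.02 and -0.89 (mean -0.95 ± 0.09, limma adjusted p = 1.82e-13). The blood group protease Kel was at -1.07 ± 0.25, the acid phosphatase Acp5 at -1.02 ± 0.27 and Hemgn, an erythroid nuclear protein, at -0.96 ± 0.02. Each was lower on both arrays.

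Several genes of the skeleton under the membrane were lower and others did not pass. Sptb, a spectrin of red cells, was at -0.64 ± 0.10, Ank1, which anchors it, at -0.72 ± 0.14, Epb42 at -0.98 ± 0.07 and Dmtn at -0.52 ± 0.03. The second Epb42 probe gave -0.97 and the 3 Ank1 probes lay between -0.77 and -0.70, whereas the other Sptb probes gave -0.65, -0.48 and 0.23. The Rh proteins Rhd and Rhag were at -0.87 ± 0.03 and -0.79 ± 0.22, and the carbonic anhydrase Car2 at -0.81 ± 0.10. Epb41 (-0.14), Gypc (-0.17), Bpgm (-0.15) and the adult carbonic anhydrase Car1 (-0.08) did not pass the test.

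Against E9.5, 27 of the 83 red cell genes had a lower ratio at E11.5 and 8 a higher one, beside 6.93% and 7.43% of all genes. At E9.5, 41 were lower and 5 higher, beside 11.6% and 13.8% of all genes, and 37 were lower at both stages. Among those with a higher ratio at E11.5 were the tropomodulin Tmod1 (-1.02 at E9.5, -0.34 at E11.5), the urea transporter Slc14a1 (-0.77 and 0.10) and the transferrin receptor Tfrc (-0.31 and 0.13).

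**Figure D2:**
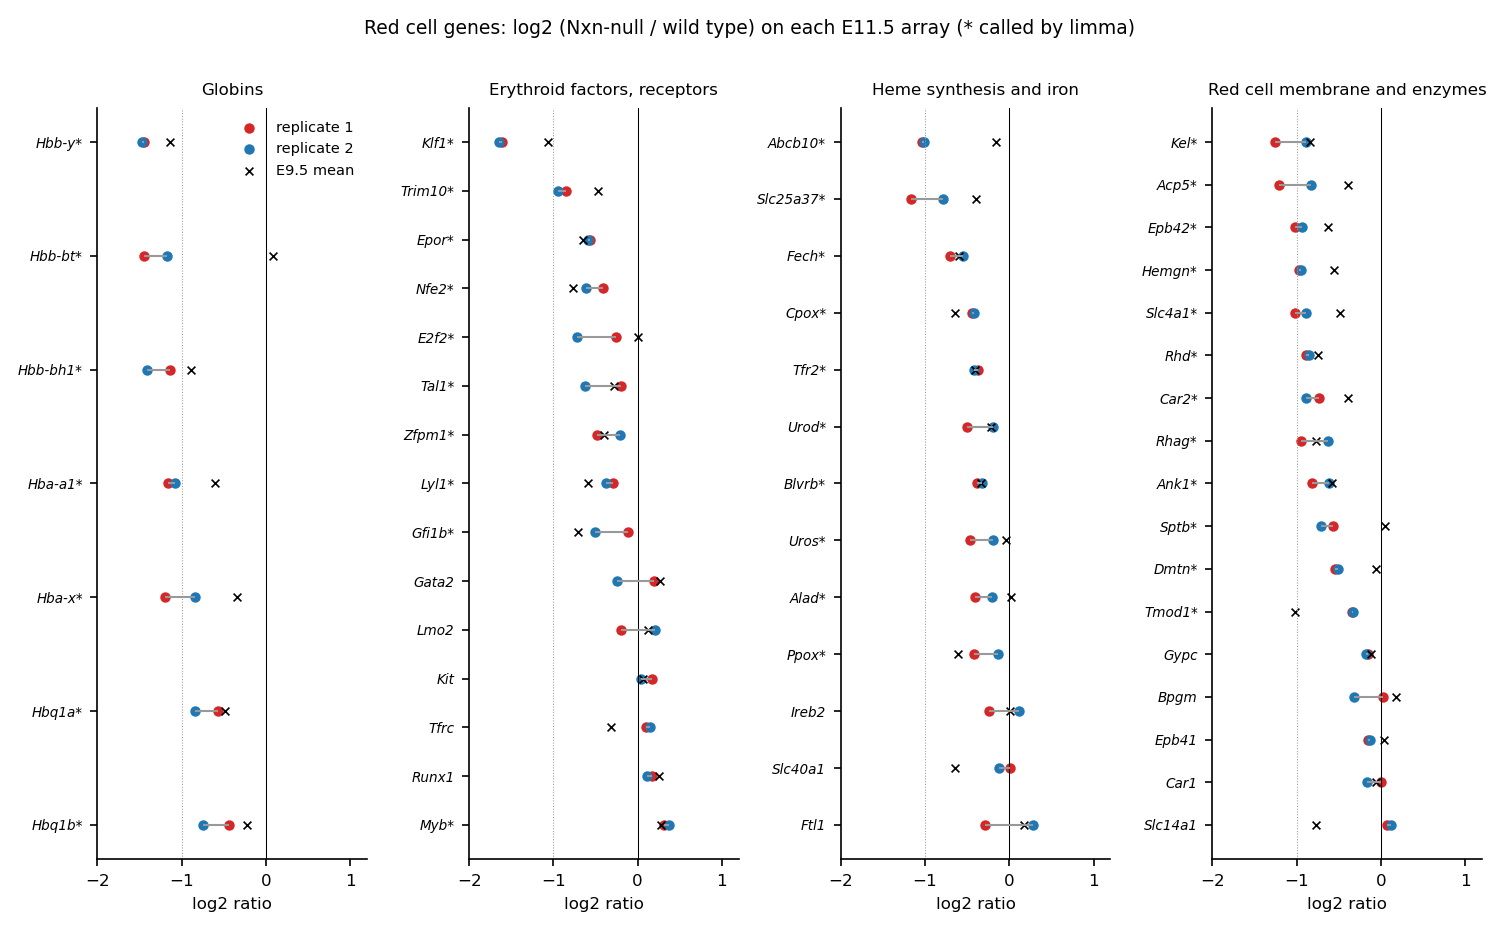
Log2 ratio of Nxn-null over wild type for the red cell genes named in the text, in 4 panels by role, with the 2 E11.5 arrays as red and blue points joined by a line, the E9.5 mean as a cross and a dotted line at 2-fold lower. The beta-like globins and Klf1 lie left of the dotted line on both arrays, and their crosses, such as that of Klf1 at -1.07, lie closer to 0.

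Of genes of megakaryocytes and platelets, more were higher than lower at E11.5. This list and the granulocyte list after it were drawn up after the values had been seen, so they are described without support from any test of a list. Of 25 measured platelet genes 13 were higher and 2 lower, with a median of 0.42, against 4.87% and 5.45% of all genes. Without the intensity trend 3 were higher and 1 lower, and without a dye term 1 was called. With both genotypes above background on both arrays 17 of the 25 were left, with a median of 0.39. At E9.5 the median was -0.42, with 14 lower and 1 higher. The ratio at E11.5 was higher than at E9.5 for 16 of them and lower for 1, beside 7.43% and 6.93% of all genes.

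The platelet chemokine Ppbp read 824 against 549 and 1332 against 839, ratios of 0.59 and 0.67 (mean 0.63 ± 0.06). At E9.5 it was at -0.75 (difference 1.38, limma adjusted p = 4.45e-13). Its ratio was above 0 on both E11.5 arrays and below 0 at E9.5. The chemokine Pf4 was at 0.68 and 0.17 at E11.5 and at -0.97 at E9.5. Genes of the von Willebrand factor receptor were higher as well, with Gp1ba at 0.78 ± 0.06, Gp9 at 0.53 ± 0.03 and Gp5 at 0.87 ± 0.04, against -0.79, -0.77 and -0.29 at E9.5. The collagen receptor Gp6 was at 1.04 ± 0.39 (E9.5 -0.96), the surface protein Treml1 at 0.54 ± 0.16 (E9.5 -0.79) and the signalling regulator Rgs18 at 0.73 ± 0.02 (E9.5 -1.07). The integrin chain Itga2b was at 0.49 ± 0.40.

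With normexp background correction and loess in place of the processed signals, the list median was 0.19. That correction adds an offset of 50 to both channels, which by itself shrinks the ratios of dim genes. Gp5, Gp6 and Rgs18 were above background in the wild-type RNA on fewer than 2 arrays. Itgb3, the partner chain of Itga2b that other cells also make, was lower at -1.21 ± 0.06, but its other probe gave -0.10.

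Among granulocyte and mast cell genes 5 were higher and 2 lower of 21 measured, with a median of 0.22. Of the 21, 10 were above background in both genotypes on both arrays, and their median was 0.04. Without the intensity trend 3 were higher and 1 lower, and without a dye term none was called. Mpo, the myeloperoxidase of neutrophil precursors, was at 0.64 and 0.85 (mean 0.75 ± 0.15, limma adjusted p = 6.89e-11) and at -0.15 at E9.5. Prg2, a granule protein of eosinophils, was higher at 1.21 ± 0.20, above background in both genotypes. The chemokine receptor Ccr3 and the inhibitory receptor Pirb were above background in wild-type RNA on 1 of the 2 arrays, where the other value is a signal near background. Ccr3 read 1.51 ± 0.85 and Pirb 1.24 ± 0.39, with a second Pirb probe at 1.57. The eosinophil peroxidase Epx was below background on both arrays in wild-type RNA. It read 30.4 and 39.4 in the null, beside lowest wild-type signals above background of 52.5 and 12.7. Its fold therefore has no firm bound. Ncf4, an oxidase subunit, was lower at -0.68 ± 0.01, as was S100a9 at -0.29, which stood at 1.22 at E9.5. With normexp and loess the list median was 0.04. Of 25 measured genes on the macrophage and myeloid list 5 were higher and 1 lower, with a median of 0.11. The 5 higher ones were Mpo and the platelet genes Pf4, Itga2b, Gp9 and Ppbp, and the lower one was the cytokine receptor chain Csf2rb (-0.52 ± 0.09, another probe -0.03). The macrophage genes Csf1r and C1qa were at 0.08 and 0.09 and did not pass the test. Of 27 endothelial genes 2 were higher and 1 lower, shares near those of all genes, and Cdh5 and Pecam1, at -0.06 and 0.09, did not pass.

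**Figure D3:**
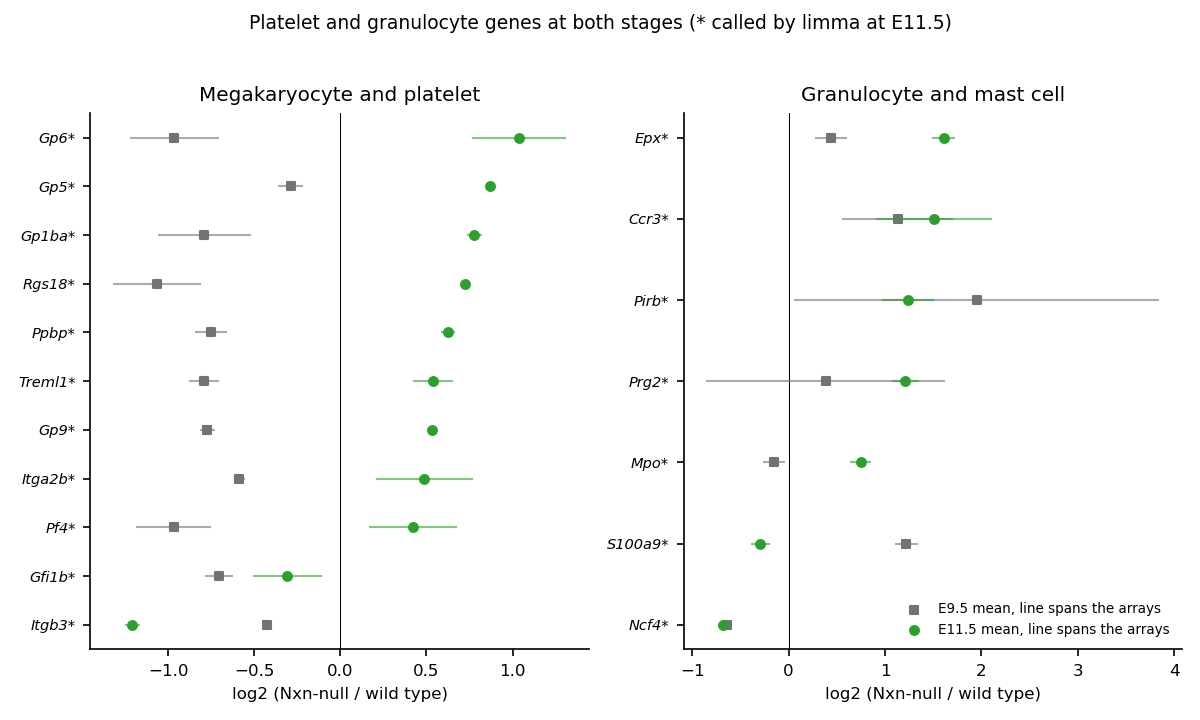
Log2 ratio of Nxn-null over wild type for the platelet genes (left) and granulocyte genes (right) named in the text, with E9.5 means as grey squares and E11.5 means as green circles, and lines spanning the arrays of a stage. Most platelet genes lie left of 0 at E9.5 and right of 0 at E11.5, such as Ppbp at -0.75 and 0.63.

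Counted by size alone, 82 genes (0.604%) were at least 2-fold apart with the same sign on both arrays, 43 higher (0.317%) and 39 lower (0.287%). All 82 were called by limma, 60 had a ratio that differed from E9.5, and 37 had passed at E9.5 in the same direction. Over all genes 10.3% were called and 14.4% differed from E9.5, and at E9.5 13.8% were higher and 11.6% lower. The 82 were picked by the E11.5 ratios that the model tests. Their calls and their differences from E9.5 therefore give no support of their own. Above background in both genotypes on both arrays were 14 of the higher and 36 of the lower genes. The other 29 higher genes were above background in the wild-type RNA on fewer than 2 arrays, so their ratios are uncertain. They were led by Tescl, a tescalcin-like gene (3.27 ± 0.31), Ccnb1ip1, a meiotic crossover factor (2.45 ± 0.81), and Dennd1c, an exchange factor for Rab proteins (2.12 ± 0.11), each above background in the wild type on 1 of 2 arrays. With normexp background correction and loess in place of the processed signals, 8 genes were at least 2-fold higher and 15 lower. The offset of 50 in that correction by itself shrinks the ratios of dim genes, so fewer of them can reach 2-fold.

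The largest higher ratio among genes measured in both genotypes was that of Ywhaz, a 14-3-3 adaptor protein. It read 13155 against 3024 and 20701 against 4884, a mean ratio of 2.10 ± 0.03 or 4.29-fold (limma adjusted p = 1.41e-21), with 0.00 at E9.5. A second probe, also higher on both arrays, gave 0.73 ± 0.30. None of the other 6 genes of that family passed the test. Cuedc1, a ubiquitin-binding protein, was at 1.97 ± 0.37 and its second probe at 3.14 ± 0.01, against 0.75 at E9.5. Myocd, a coactivator of heart and smooth muscle genes, was at 1.23 ± 0.53, Pttg1, the securin that holds sister chromatids together, at 1.25 ± 0.35, and Tedc1, a protein of centrioles, at 1.21 ± 0.23. Pttg1 and Tedc1 stood at -0.02 and 0.06 at E9.5. With normexp and loess Myocd (0.75) and Tedc1 (0.62) were no longer 2-fold higher, while Ywhaz (2.05), Cuedc1 (1.40) and Pttg1 (1.24) still were.

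Several of the large higher ratios rested on 1 of the probes of a gene. Gadd45gip1, a protein of the mitochondrial ribosome, was at 1.40 ± 0.27 by its brightest probe and at -1.55 ± 0.05 by another, so the probes went opposite ways on both arrays. Med1, a Mediator subunit, was at 1.46 ± 0.02 against -0.16 and -0.01 by its other probes, and 2810410L24Rik at 1.43 ± 0.23 against -0.13 and 0.06. Nosip, an interactor of nitric oxide synthase, was at 1.04 ± 0.07 against 0.07. Tle1, a corepressor of Wnt target genes, was at 1.11 ± 0.09, with other probes at 0.84 and -0.11. Of the 29 named genes of largest ratio, 12 had other kept probes, and in 5 of the 12 another probe had the opposite sign. Over all genes, 24 of the 82 had several kept probes, and in 17 of the 24 all probes had the same sign.

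Most of the lowest genes outside the red cell lists had 1 probe. Npsr1, the neuropeptide S receptor, read 142 against 502 and 167 against 792, a mean ratio of -2.03 ± 0.30, and was at -0.52 at E9.5. Klhl31, a muscle protein of the kelch family, was at -1.98 ± 0.39, Ocel1 at -1.80 ± 0.31, Prap1 at -1.54 ± 0.01 and Apol8 at -1.42 ± 0.03. The gluconeogenic enzyme Fbp1 was at -1.58 ± 0.07. Prap1 stood at 1.10 at E9.5, the opposite direction, and Fbp1 at -2.97. With normexp and loess Klhl31 (-0.95), Prap1 (-0.91), Apol8 (-0.90) and Fbp1 (-0.71) were no longer 2-fold lower. Npsr1 (-1.50) and Ocel1 (-1.41) still were. Mxra7 was at -1.82 ± 0.06, but a dimmer probe gave -0.65 and 0.38 on the arrays. Aph1b, a subunit of gamma-secretase, was lower by 3 probes, between -1.24 and -0.82, and was higher at E9.5 (1.02).

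Among 5252 genes with several kept probes, 10 had every probe at least 1.5-fold higher and 20 every probe at least 1.5-fold lower. The lower ones held the red cell genes Hbb-bh1, Abcb10, Epb42, Ank1 and Fech. They also held Apob, Aph1b, Tmem242 (-1.19 and -0.82 on the arrays), the membrane repair protein Myof (-0.77 ± 0.11) and the class I gene H2-Bl, whose probes gave -0.84 and -3.74. The higher ones included Ywhaz, Cuedc1, Pirb, Rgs18, the folate enzyme Shmt1 (0.82 ± 0.02), the methionine salvage enzyme Mri1 (0.89 ± 0.10) and the class I gene H2-T22 (0.61 ± 0.11). H2-Bl and H2-T22 belong to a family of close copies, so their signal is uncertain.

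Genes at least 2-fold apart gathered in 1 stretch of chromosome 15. Among windows of 25 neighbouring measured genes, 11604 held none of the 82 and 4 held 6, the most of any, all in this stretch. The 6 were Pop1, an RNase P subunit (-1.04 ± 0.26), Vps13b, a lipid transport protein of the Golgi (-1.29 ± 0.36), Spag1, a dynein assembly factor (-1.10 ± 0.29), Ywhaz (2.10 ± 0.03), the Wnt receptor Fzd6 (-1.98 ± 0.04) and Cthrc1, a secreted collagen repeat protein (-1.79 ± 0.26). Fzd6 read 42.8 against 165 and 65.3 against 261, and Cthrc1 268 against 1053 and 463 against 1409. With normexp and loess Vps13b stood at -0.56, no longer 2-fold lower, Fzd6 at -1.05, Cthrc1 at -1.46 and Ywhaz at 2.05.

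At E9.5 none of the 25 genes of the stretch stood below -0.22 or above 0.37, and the 6 were at -0.00, -0.05, -0.17, 0.00, -0.02 and -0.13. Genes between them, such as Zfp706 (0.05), Grhl2 (0.13) and Klf10 (0.04), did not pass the test. Of the 25 genes 9 were called lower and 2 higher, and 10 differed from E9.5, beside 5.45%, 4.87% and 14.4% of all genes. The stretch was picked for these values, so they are a description with no test. By chromosome, the share at least 2-fold apart was highest on chromosome 11, which holds Nxn (16 of 1178, 1.36%), and on chromosome 15 (7 of 575, 1.22%), and chromosome 18 had 0 of 352 genes.

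**Figure D4:**
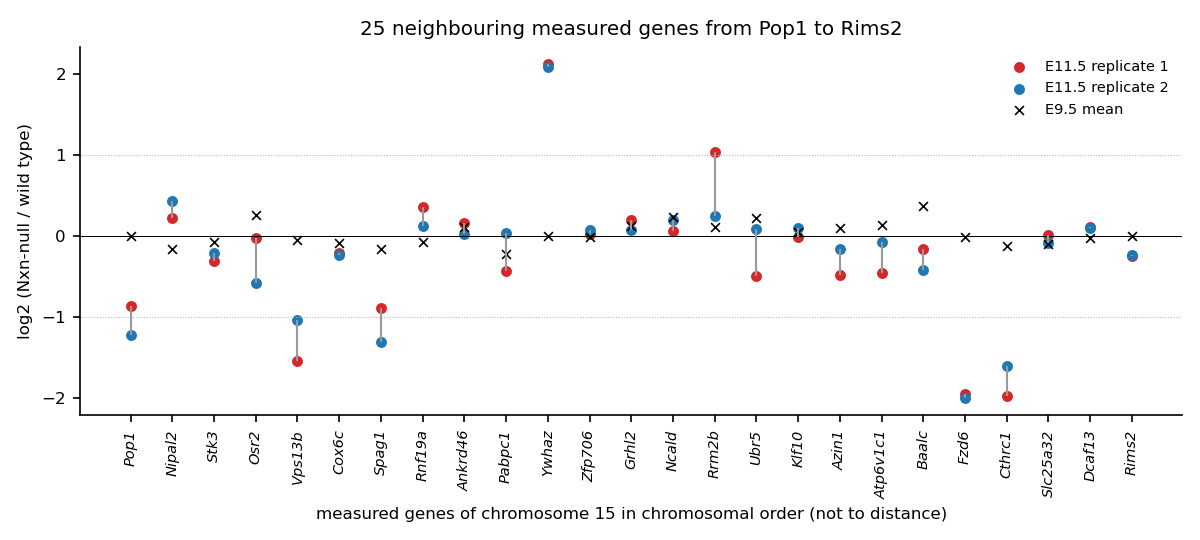
Log2 ratio of Nxn-null over wild type for 25 neighbouring measured genes of chromosome 15, in chromosomal order but not to distance, with both E11.5 arrays as points and the E9.5 mean as a cross. On average Ywhaz stands above 2-fold higher and Pop1, Vps13b, Spag1, Fzd6 and Cthrc1 beyond 2-fold lower, while every cross lies between -0.22 and 0.37.

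The title of the series concerns Wnt signalling through beta-catenin. Of 36 measured target genes of that pathway 6 were higher and 1 lower by limma, against 4.87% and 5.45% of all genes. Their median was 0.08, and that of the 30 above background in both genotypes on both arrays was 0.07. The higher ones were the growth factors Fgf8 (0.44 ± 0.08) and Bmp4 (0.21 ± 0.04), the transcription factors Sp8 (0.31), Sp5 (0.28) and Msx2 (0.27), and the feedback inhibitor Nkd1 (0.25 ± 0.27). Sox9, a factor of cartilage and other tissues, was lower at -0.26, with other probes at -0.10 and 0.15. Axin2, the feedback gene read as a general measure of the pathway, was at 0.04 and 0.20, a mean of 0.12 ± 0.11, and did not pass (limma adjusted p = 0.349). Lef1 (0.02), Ccnd1 (0.11) and Myc (-0.07) did not pass either, nor did any Wnt target without the intensity trend.

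Ligands and secreted modulators had 6 higher and no lower members of 27. Of the 27, 22 were above background in both genotypes on both arrays, and the median was 0.11 with and without the others. The secreted antagonist Sfrp1 was at 0.80 and 0.60 (mean 0.70 ± 0.14, limma adjusted p = 1.66e-10), with another probe at -0.11. The ligand Wnt3a was at 0.57 ± 0.05, Wnt2 at 0.39 ± 0.24, Wnt7b at 0.23 and the agonist Rspo2 at 0.23. Wnt2 had been at -0.85 at E9.5. Receptors and transducers had 1 higher and 5 lower members of 47, with Tle1 higher and Fzd6, the coreceptor Lrp5 (-0.25), Ptk7 (-0.24), Tle2 (-0.39) and Tle3 (-0.27, another probe 0.15) lower. Beta-catenin itself, Ctnnb1, was at -0.04.

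In the FGF list 3 of 23 genes were higher and none lower. Besides Fgf8 these were Etv4 and Etv5, transcription factors that FGF signals induce. Etv4 was at 0.82 and 0.74 (mean 0.78 ± 0.06, limma adjusted p = 1.31e-09), and Etv5, dim in the wild-type RNA, at 1.14 and 0.53, with another probe at 0.26. In the BMP list Gdf10 (-0.51 ± 0.26), Bmp7 (-0.26), Inhba (-0.23) and Bmpr2 (-0.20) were lower and Bmp4 higher, of 31 measured. Other probes of Bmpr2 gave -0.11 and -0.03. Over all genes 5.45% were lower and 4.87% higher.

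Genes of liver serum proteins were lower in 10 of 33 cases and higher in 1. Ahsg, or fetuin A, was at -0.82 and -1.06 (mean -0.94 ± 0.17), Alb at -0.50 ± 0.02 and Apob at -1.03 ± 0.42. Alb had been at 0.22 at E9.5 (difference -0.72, limma adjusted p = 1.11e-07), whereas Apob, made by yolk sac as well, had been at -4.43. Afp, the main fetal serum protein, was at -0.07 and at -3.39 at E9.5. Hp, or haptoglobin, was higher at 0.31. Outside the list, named after their values were seen, the protease inhibitors Serpina1b, Serpina1d and Serpina1e, close copies of each other, were higher at 0.91, 0.95 and 1.02. Serpina1e, with an SD of 0.50, was above background in the wild-type RNA on 1 of 2 arrays, so its ratio is uncertain. Of 19 yolk sac genes only Apoc2 was called (-0.34), beside 19 lower of 19 at E9.5. The median of that list went from -2.40 at E9.5 to -0.02 at E11.5, and Cubn and Amn, its defining markers, were at -0.24 and 0.09.

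Collagens were lower in 9 of 27 cases and higher in none, with a median of -0.11. Col1a1 was at -0.36 ± 0.24, Col6a3 at -0.35 ± 0.20, Col1a2 at -0.31 ± 0.22, Col3a1 at -0.28 ± 0.23, and the cartilage collagens Col9a2 and Col9a3 at -0.28 and -0.31. In each of these the array with the null RNA in Cy5 was farther from 0. Another probe of Col3a1 gave 0.04. Matrix glycoproteins had 7 lower and no higher members of 40, with Matn4 at -0.59 ± 0.13, the crosslinking enzyme Loxl2 at -0.44 ± 0.28 (another probe 0.07), Timp2 at -0.40 ± 0.20 and Fn1 at -0.31 ± 0.35. None of these collagen or matrix genes was lower without the intensity trend.

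In the cartilage and bone list 6 of 18 were lower and 1 higher. The phosphoprotein Spp1 was at -0.66 and -0.65, against 0.59 at E9.5, the bone regulator Runx2 at -0.28 and Hapln1, the link protein of cartilage matrix, at 0.36 ± 0.00. The dim genes Chad (-0.64), Sp7 (-0.56) and Acan (-0.37) were called lower too, but with normexp background correction and loess they stood at 0.77, 0.92 and 0.24.

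Heart genes had 7 higher and 1 lower member of 32, and none was called without the intensity trend or without a dye term. The troponin Tnnc1 was at 0.67 and 0.49 (mean 0.58 ± 0.13), the ventricular light chain Myl2 at 0.44 ± 0.11, and the natriuretic peptides Nppb and Nppa at 0.44 ± 0.05 and 0.27 ± 0.00. The giant sarcomere protein Ttn was lower at -0.71 ± 0.11, with other probes at -0.15 and -0.14. The defining markers Myh6 (-0.02), Myl7 (0.13) and Actc1 (0.12) did not pass the test. All 8 called genes stood higher in ratio than at E9.5, when 28 of 32 genes were lower and the median of the list stood at -1.13, against 0.13 at E11.5. Glycolysis genes had 5 higher and 1 lower member of 26, among them the muscle enzymes Eno3 (0.47 ± 0.10) and Pgam2 (0.42 ± 0.04).

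Imprinted genes had 9 lower and no higher members of 33. The noncoding RNA Kcnq1ot1, which silences its cluster, was at -0.55 ± 0.01, and Peg12 was at -0.62 ± 0.01. Rian, Meg3 and Mirg, transcripts of 1 maternally expressed cluster, were at -0.86 ± 0.97, -0.41 ± 0.22 and -0.31 ± 0.06. Rian gave -1.55 and -0.18 on the arrays and -0.27 by another probe, and Snhg14, at -1.30 ± 0.66, had another probe at 0.07. The abundant growth regulators Igf2 (-0.09), H19 (-0.07) and Cdkn1c (-0.09) did not pass the test.

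Interferon genes had 4 higher and 1 lower member of 21 measured. With both genotypes above background on both arrays 14 of the 21 were left, with a median of 0.08, against 0.12 for the 21. Bst2, a membrane protein that tethers budding virions, was at 1.01 and 1.15 (mean 1.08 ± 0.10, limma adjusted p = 1.83e-13) and at -0.07 at E9.5. Isg15, a ubiquitin-like protein, was at 1.19 and 0.26, Ifi27 at 0.32 (another probe 1.27), the class I gene H2-K1 at 0.23, and Stat2 at -0.26. Replication-dependent histones had 5 higher and no lower members of 24, with H3c1 at 0.46 ± 0.30 and H2ac18 at 0.30 ± 0.07. Their messages mostly lack a poly(A) tail, and the labelling started from an oligo-dT primer.

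Neural and patterning genes lay near 0 at E11.5. Neuronal genes had 3 higher and 2 lower members of 33 and a median of 0.05, where 21 were higher at E9.5. The defining markers Tubb3, Stmn2 and Elavl3 were at 0.05, 0.07 and -0.00, and the microtubule protein Mapt was lower at -0.41 ± 0.20. Hox genes had 1 higher and 1 lower member of 35, of which the lower, Hoxb8, had opposite signs on the arrays (-0.93 ± 1.36), and limb genes 2 higher and no lower of 25. Thioredoxin and glutathione genes, the redox family of nucleoredoxin, had 1 higher and 2 lower members of 37. For the Hox and redox lists these shares are no larger than the 4.87% and 5.45% of all genes. Both shares of neuronal genes and the higher share of limb genes are larger. The lower redox genes were Prdx3 (-0.34 ± 0.11) and Gpx1 (-0.31 ± 0.04). The immediate early and stress list had 3 lower of 31, led by Trib3, a pseudokinase of the stress response (-1.02 ± 0.33, another probe -0.56). In the hypoxia list 3 were lower and 2 higher of 27, against 5.45% and 4.87% of all genes. Vegfa was lower at -0.19 ± 0.22, and the carbonic anhydrase Car12, dim in the wild-type RNA, was higher at 1.47 ± 0.62. Other probes of Vegfa gave -0.14 and 0.12.

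**Figure D5:**
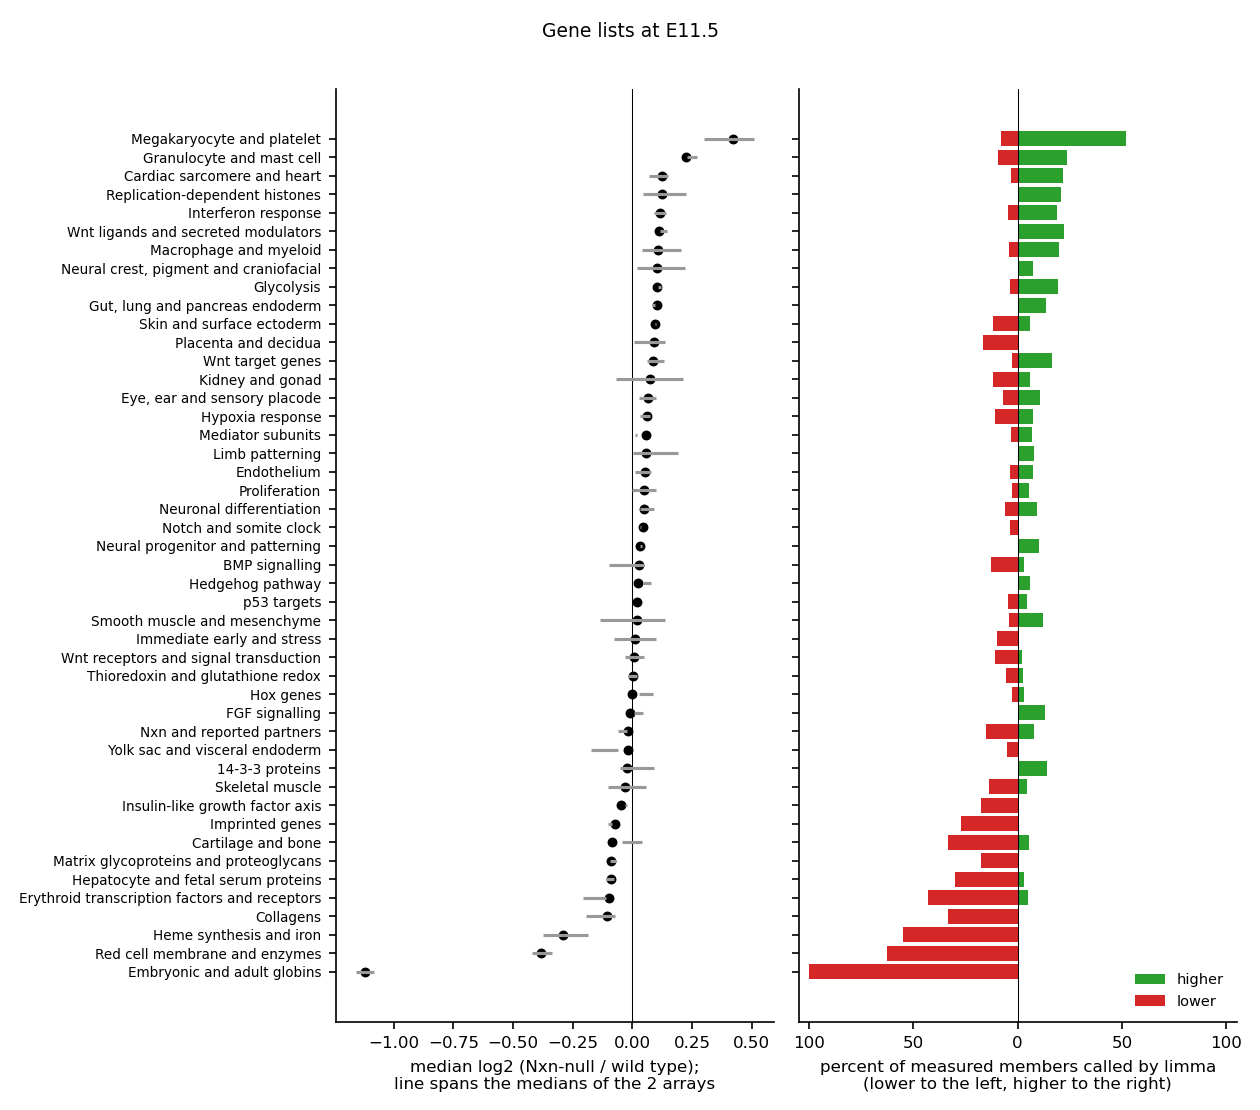
Gene lists at E11.5, sorted by the median log2 ratio of Nxn-null over wild type (left, with a line between the medians of the 2 arrays) and the percent of measured members called higher or lower by limma (right). Globins, red cell membrane, and heme genes are at the low end, with medians of -1.12, -0.38 and -0.29, and platelet genes at the high end with 0.42.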

How the data were processed

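Total RNA of NRX +/+ and NRX -/- embryos was amplified from an oligo-dT primer and hybridised in both dye orientations, per the labels' protocols. Processed intensity values were deposited per spot after background subtraction and linear and lowess dye normalization, per the file headers (Feature Extraction 9.1.3.1, while the submitters' processing notes name 9.5.3.1). The deposited value table holds log10 of null over wild type, equal to the processed intensity ratios within 0.0001 for over 99.5% of probes, with values no lower than -2.

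Control spots were left out, spots of a probe were averaged, and 24165 probes were kept that Feature Extraction marked as well above background on both E11.5 arrays for the null, the wild type or both. The brightest probe stood for a gene. Probes were named through RefSeq by accession (22951), current symbol (6659) or older symbol (3109), and 8455 had no name. Log2 ratios were fitted with limma 3.58.1 in R 4.3.3 (E9.5, E11.5 and dye terms, intensity trend), and p-values adjusted over 16686 genes. The dye term and the stages leave 1 residual degree of freedom. P-values measure only the spread between arrays, which may be technical. The dye term takes up differences between dye-swapped arrays that both stages share. limma drew each variance toward that of genes of like intensity (30.2 prior degrees of freedom). A p-value is thus not a measure of the gene's own spread between its E11.5 arrays. On simulated data the fit recovered 83.6% of changes of 0.5 (log2) and 100% of changes of 1 or more, and 6.44% of its calls were false. The simulated noise was independent, followed the fitted intensity trend exactly and kept the dye effect the same at both stages. The model's assumptions thus held by construction, and the 6.44% is not the error rate of the calls on the real arrays. Array number limits the precision. All arrays were on 1 slide and 1 scan.

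Genes were named by rule (Nxn; the 15 highest and lowest at least 2-fold apart in both genotypes; those with several probes 1.5-fold apart; up to 6 called members and the defining markers of each list; any member of the red cell, partner and Wnt target lists; bounds). Further genes, such as more platelet genes and the Serpina1 genes, were named after their values were seen. The members and the lists were chosen with earlier results of these data known, and the platelet and granulocyte lists after the values had been seen. Alternatives varied the background correction, centring, probe choice, filters, value table, limma terms and arrays. The normexp alternative added an offset of 50 to both channels, which by itself shrinks the ratios of dim genes. A probe not above background in a genotype on both arrays has no measured fold. A rough bound set the bright group's signal over the dim group's, averaged over the arrays. Where the dim signal was under the lowest signal well above background on that array, the latter stood in for it. That lowest signal is a minimum over probes, so the bound is not firm. Some items are not reported here.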

Additional observations from a re-analysis of the deposited data

Results flagged for a closer look

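The groups of 2 arrays are too small for the check on single stray samples. The ratio of Nxn-null over wild type was tested between stages in the 4-array limma fit, and 130 of the 224 autosomal genes named here differed at a Benjamini-Hochberg adjusted p under 0.05, 62 with a lower and 68 with a higher ratio at E11.5. Values in brackets are the log2 ratio at E11.5 minus that at E9.5, and the wild-type and null RNA of each stage stand for 1 replicate of a genotype. Over all autosomal genes 1951 (14.4%) differed. Many of the named genes were picked by their E11.5 ratios, which are part of this difference. Their share therefore cannot be compared with that of all genes.

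Red cell genes made up the first group. The globins with a lower ratio at E11.5 were Hbb-bt (-1.39), Hba-x (-0.67), Hba-a1 (-0.51), Hbb-bh1 (-0.39) and Hbq1b (-0.37). Nxn itself had Nxn (-0.40). Among regulators the ratio was lower for Klf1 (-0.56), E2f2 (-0.49), Trim10 (-0.43) and Gata2 (-0.29) and higher for Gfi1b (0.39), Lyl1 (0.26) and Tfrc (0.44). Among heme and iron genes it was lower for Abcb10 (-0.86), Slc25a37 (-0.57) and Alad (-0.33) and higher for Ppox (0.33) and Slc40a1 (0.59). Among membrane and enzyme genes it was lower for Sptb (-0.69), Acp5 (-0.63), Dmtn (-0.47), Slc4a1 (-0.47), Car2 (-0.42), Hemgn (-0.40) and Bpgm (-0.32) and higher for Slc14a1 (0.87) and Tmod1 (0.67).

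Other blood genes were mostly higher at E11.5 than at E9.5. For platelet genes these were Gp6 (2.00), Rgs18 (1.79), Gp1ba (1.57), Pf4 (1.39), Ppbp (1.38), Treml1 (1.33), Gp9 (1.30), Gp5 (1.16) and Itga2b (1.08), while Itgb3 was lower (-0.78). Of myeloid genes Mpo (0.90) and Csf2rb (0.50) were higher, and S100a9 (-1.52) and C1qa (-0.56) were lower.

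Many tissue genes had positive differences. Of yolk sac and serum protein genes these were Cubn (4.70), Amn (3.64), Apob (3.40), Afp (3.32), Apoc2 (2.97), Serpina1b (1.95), Serpina1e (1.92) and Serpina1d (1.88), while Alb (-0.72) and Ahsg (-0.33) had negative ones. Of heart and muscle genes they were Myl2 (4.26), Nppb (2.79), Nppa (2.44), Myh6 (1.67), Ttn (1.63), Tnnc1 (1.62), Myl7 (1.44), Actc1 (1.23), Pgam2 (1.02), Myocd (0.59) and Eno3 (0.54). Most of these were lower in the null at E9.5, whereas at that stage Myocd stood above 0, at 0.65, and Eno3 at -0.07.

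Matrix, cartilage and neuronal genes had lower ratios at E11.5. These were Chad (-1.36), Sp7 (-1.25), Spp1 (-1.24), Runx2 (-0.73), Sox9 (-0.58), Col9a2 (-0.51), Col9a3 (-0.41), Timp2 (-0.40), Loxl2 (-0.37), Matn4 (-0.35) and Col3a1 (-0.34), with Hapln1 higher (0.52), and the neuronal Mapt (-0.79), Stmn2 (-0.55), Tubb3 (-0.50) and Elavl3 (-0.31).

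Of genes with a large ratio at E11.5, the difference was positive for Ywhaz (2.10), Pttg1 (1.28), Cuedc1 (1.22), Tedc1 (1.15), Bst2 (1.15), Tle1 (0.90), Gadd45gip1 (0.89) and Med1 (0.89) and for the dim Car12 (1.78) and Isg15 (0.99). It was negative for Prap1 (-2.64), Aph1b (-2.04), Fzd6 (-1.96), Mxra7 (-1.88), Cthrc1 (-1.66), Klhl31 (-1.55), Npsr1 (-1.52), Tmem242 (-1.29), Vps13b (-1.24), H2-Bl (-1.07), Pop1 (-1.04), Spag1 (-0.93), Apol8 (-0.88), Ocel1 (-0.55) and Myof (-0.30). Fbp1 was lower at both stages and closer to 0 at E11.5 (1.39).

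Signalling genes with a higher ratio at E11.5 were Wnt2 (1.24), Sfrp1 (0.49), Etv4 (0.47), Sp5 (0.41), Inhba (0.39) and Bmp4 (0.32), and those with a lower one Tle3 (-0.46), Gdf10 (-0.42) and Ptk7 (-0.41). Of the others named, Mirg (0.71), Pfkp (0.62), Mri1 (0.53), Kcnq1ot1 (0.50), H3c1 (0.42), H2ac18 (0.36), H2-T22 (0.35), H2-K1 (0.34) and Snhg14 (0.31) were higher. Of the genes named among the dim and remaining lists, Tescl (3.42), Ccnb1ip1 (2.86), Dennd1c (4.64) and Igfbp1 (3.41) were higher, and Cryaa (-0.77), Chrna1 (-0.71), Neb (-0.66) and Myh3 (-0.51) lower.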

How the results depend on the processing

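Against 43 genes at least 2-fold higher and 39 lower, normexp with loess gave 8 and 15, a filter for both genotypes 14 higher, no filter 193 lower, and leaving out 1 E11.5 array 56 to 258 higher and 42 to 100 lower. Against 661 higher and 741 lower by limma, no filter gave 30 and 74, no intensity trend 87 and 96, no dye term 16 and 38, and the E11.5 arrays alone 121 and 208. With 1 of the 4 arrays left out these were 2 to 121 and 4 to 208. The 1951 differences from E9.5 became 197 with no filter, 436 with no trend, 133 with no dye term, and 70 to 483 with 1 array left out. All other alternatives kept these counts within 1.5 times.

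The median of globins was -1.02 with the mean of all kept probes (against -1.12), that of erythroid regulators lay between -0.21 and -0.11 with 1 array left out (against -0.10), and that of platelet genes was 0.19 with normexp and loess (against 0.42). With normexp and loess Chad turned to 0.77, Sp7 to 0.92 and Acan to 0.24. With 1 E11.5 array left out, Sp7 lay between -1.18 and 0.063, Acan between -0.75 and 0.017, Hoxb8 between -1.90 and 0.028 and Insr between -0.89 and 0.083, the value above 0 each time without replicate 1. Gadd45gip1 was at -0.071 with the mean of its probes. The cause was not tested, except that the last averages probes of opposite sign. Limma called 180 of the named genes. Of these, 162 kept direction and call with normexp and loess, 178 with median centring and 159 with the mean of probes. Direction and call held for 179 with the deposited value table, 63 without the intensity trend and 35 without a dye term.

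No paired analysis was possible because the replicate numbers mark the dye orientation, which the model holds as its dye term. Ratios of dim genes rest on signals close to background, and 2 arrays give no spread of their own between embryos.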

Other observations

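Genes of contractile skeletal muscle were lower in 3 of 22 cases and higher in 1, against 5.45% and 4.87% of all genes. Neb, the thin filament ruler nebulin, was at -0.60 and -0.72 (mean -0.66 ± 0.08), Myh3, the embryonic myosin heavy chain, at -0.31 ± 0.16 and Chrna1, the acetylcholine receptor subunit of the muscle end plate, at -0.27 ± 0.18. At E9.5 they stood at 0.00, 0.20 and 0.44. Actn3, the actinin of fast fibres, was higher at 0.33 ± 0.23. A second probe of Neb gave -0.54 and one of Chrna1 -0.09.

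Lens and eye genes divided. The lens crystallin Cryaa was lower at -0.46 ± 0.09, with a second probe at -0.13, and Cryba1 at -0.30 ± 0.04, whereas the dim Rax (0.91 ± 0.16), Foxe3 (0.61 ± 0.82) and Cryge (0.66 ± 0.00) were called higher and lay between 0.07 and 0.19 with normexp and loess. The 3 endothelial genes called of 27, a share near the 10.3% of all genes, were the receptor Flt1 (0.34 ± 0.13), the fenestral protein Plvap (0.25 ± 0.23) and Mmrn2 (-0.38 ± 0.05). In the insulin-like growth factor list 3 of 17 were lower, Igfbp1 (-0.56 ± 0.37, and -3.97 at E9.5), Insr (-0.40 ± 0.69) and Igfbp5 (-0.21 ± 0.15). Another probe of Igfbp5 gave 0.20, and other probes of Flt1 gave 0.03 and 0.49. None of these genes was called without the intensity trend.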
